A study of Mus musculus with 8 samples.

Results

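The genes of the NF-κB subunits and of their inhibitors were followed in the peak lists of 3 chromatin immunoprecipitation (ChIP-seq) libraries. The 8 genes are Nfkb1, Nfkb2, Rel, Rela and Relb, which encode the DNA-binding subunits, and Nfkbia, Nfkbib and Nfkbiz, which encode proteins of the IκB family. They were taken by name out of 21887 protein-coding genes, and Nfkb1 was chosen by its high HMGA2 score at one of its ends. That peak is therefore given as a description and supports nothing. The study used C57BL/6 mouse embryonic fibroblasts (MEF) of embryo stage E15.5 at passages 2 to 4, either Hmga2 wt or Hmga2 Ko, with antibodies to HMGA2, to H2AXS139ph and to ATM, and with input DNA. Peak lists of the 3 antibodies in Hmga2 wt cells were used, 1 library each. The Hmga2 Ko libraries and the inputs were not analysed here, so all values are of cells that still carry Hmga2. The lists hold binding regions and no expression, and the labelled cell type could not be checked against its marker genes.

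NF-κB is a family of dimeric transcription factors. In resting cells IκB proteins hold the dimers in the cytoplasm, and signals from cytokine or Toll-like receptors lead to phosphorylation and destruction of IκB, after which the dimers enter the nucleus and act on genes with κB sites. Several of these targets are genes of the family itself, Nfkbia among them, which closes a negative feedback loop. In fibroblasts the pathway is known for the response to TNF and interleukin-1. HMGA2 is a chromatin protein that binds AT-rich DNA through AT hooks. ATM is a kinase activated by DNA double-strand breaks. In a form that leaves the nucleus, ATM is also known to take part in the activation of NF-κB after DNA damage. The mark γ-H2AX (H2AXS139ph) is a phosphorylated form of the histone variant H2AX. ATM can place this mark, but a γ-H2AX peak does not show which kinase did so.

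The promoters are shown first because the study lists promoter regions and because κB sites are a known feature of these genes. Promoter sequences of 250 bases before to 50 bases after a transcription start were taken from RefSeq (GRCm38.p6). Of the 8 genes, 5 had an entry, with 7 windows in all. Nfkb1, Relb and Nfkbiz had none, and their strand was not in the sources used here. Their ends are therefore named by coordinate only. The classical κB motif was searched on both strands and is printed in capitals, where overlapping matches run together. The first sequence is Nfkb2 at chr19:46304487-46304786 on the plus strand, and the second is a downstream start of the same gene at chr19:46305445-46305744. They are shown because γ-H2AX peaks from the authors' promoter list lie beside both. Rel (chr11:23770920-23771219, minus strand) is shown for the ATM peak closest to a start, and Nfkbia (chr12:55492598-55492897, minus strand) as the promoter of the feedback inhibitor, with no peak near it.
Nfkb2, upstream start: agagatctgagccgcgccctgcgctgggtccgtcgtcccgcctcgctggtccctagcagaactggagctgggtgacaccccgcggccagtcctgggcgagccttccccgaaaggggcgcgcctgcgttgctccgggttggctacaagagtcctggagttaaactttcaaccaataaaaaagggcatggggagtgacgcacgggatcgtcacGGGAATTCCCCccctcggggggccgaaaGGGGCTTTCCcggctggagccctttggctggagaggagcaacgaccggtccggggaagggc
Nfkb2, downstream start: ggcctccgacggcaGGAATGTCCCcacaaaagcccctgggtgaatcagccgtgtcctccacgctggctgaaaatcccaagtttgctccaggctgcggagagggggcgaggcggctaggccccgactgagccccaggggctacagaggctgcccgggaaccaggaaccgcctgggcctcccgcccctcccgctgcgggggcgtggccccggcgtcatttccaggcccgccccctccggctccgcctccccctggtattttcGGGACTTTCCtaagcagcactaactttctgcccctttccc
Rel: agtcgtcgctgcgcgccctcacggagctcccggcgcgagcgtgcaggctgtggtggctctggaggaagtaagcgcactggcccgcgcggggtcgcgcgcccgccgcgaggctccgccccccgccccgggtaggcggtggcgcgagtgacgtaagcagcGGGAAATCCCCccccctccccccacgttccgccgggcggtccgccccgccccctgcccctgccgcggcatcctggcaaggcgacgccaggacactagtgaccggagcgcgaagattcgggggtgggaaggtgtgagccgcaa
Nfkbia: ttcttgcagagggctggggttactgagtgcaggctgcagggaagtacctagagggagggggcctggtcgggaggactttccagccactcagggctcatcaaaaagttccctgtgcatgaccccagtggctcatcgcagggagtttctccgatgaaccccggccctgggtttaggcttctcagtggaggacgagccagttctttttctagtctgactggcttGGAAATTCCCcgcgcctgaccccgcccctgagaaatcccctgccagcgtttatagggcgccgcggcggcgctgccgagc

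At least 1 κB match was found in 5 of the 7 windows, which belong to 3 of the genes (Nfkb2, Rel and Nfkbia), against 4.51% of all 32851 promoter windows of the table. The downstream window of Nfkb2 overlaps the remaining window of that gene, and 1 match in their shared sequence is counted in both. The tetranucleotide AATT, a short AT-rich run searched because HMGA2 prefers AT-rich DNA, was present in 2 of the 7 windows, the upstream window of Nfkb2 and that of Nfkbia, against 50.4% of all windows. In each of these 2 windows it occurs 1 time, within the letters of a κB match. A and T made up between 25% (Rel) and 43.7% (Nfkbib) of the bases, against a median of 47.3% over all windows. No peak of any of the 3 antibodies touched one of the 7 windows. Over all windows, 1.46% were touched by an HMGA2 peak, 3.53% by a γ-H2AX peak and 1.81% by an ATM peak. Nothing is read from the absence of peaks in 7 windows. A motif match is a description of letters and not of a bound site.

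Peaks were counted in each gene and within 10 kb of either end, a window that came to 386 kb over the 8 genes. It held 80 peaks, 20 of HMGA2, 39 of γ-H2AX and 21 of ATM. The number to compare with is the rotation mean, which is the mean count over every possible circular shift of the whole list along the chromosome. The 39 γ-H2AX peaks compared with a rotation mean of 19.7, a ratio of 1.98 (95% exact Poisson interval 1.41 to 2.71), where the pooled ratio over the windows of all protein-coding genes was 1.12. The 20 HMGA2 peaks compared with 23.0, a ratio of 0.871 (0.532 to 1.35), where all genes gave 0.953. The 21 ATM peaks compared with 18.2, a ratio of 1.16 (0.715 to 1.77), where all genes gave 0.991. The interval of γ-H2AX lay above 1, and those of the other antibodies included 1. The intervals cover counting error of independent peaks only, and each antibody had 1 library, so no replicate error and no test of a difference can be given.

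Most of the γ-H2AX peaks had low scores. The score is the authors' own, from the peak caller MACS14, and is -10 times the log10 of the p of the peak, with 20 as the lowest value kept. Of the 39 γ-H2AX peaks, 30 scored below 25, which is 76.9% against 64.6% of the whole γ-H2AX list. With peaks of 25 or more alone, 9 remained against a rotation mean of 6.84, a ratio of 1.32 (0.601 to 2.50). At a score of 30 or more there were 4 against 2.04. For HMGA2, 12 of 20 peaks were below 25, 60% against 62.8% of the list, and for ATM 15 of 21, 71.4% against 64.6%. No ATM peak of the 8 genes reached 30, and the highest was 29.8. Several γ-H2AX peaks lay close together, and the 39 formed 34 groups separated by more than 1 kb.

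**Figure D1:**
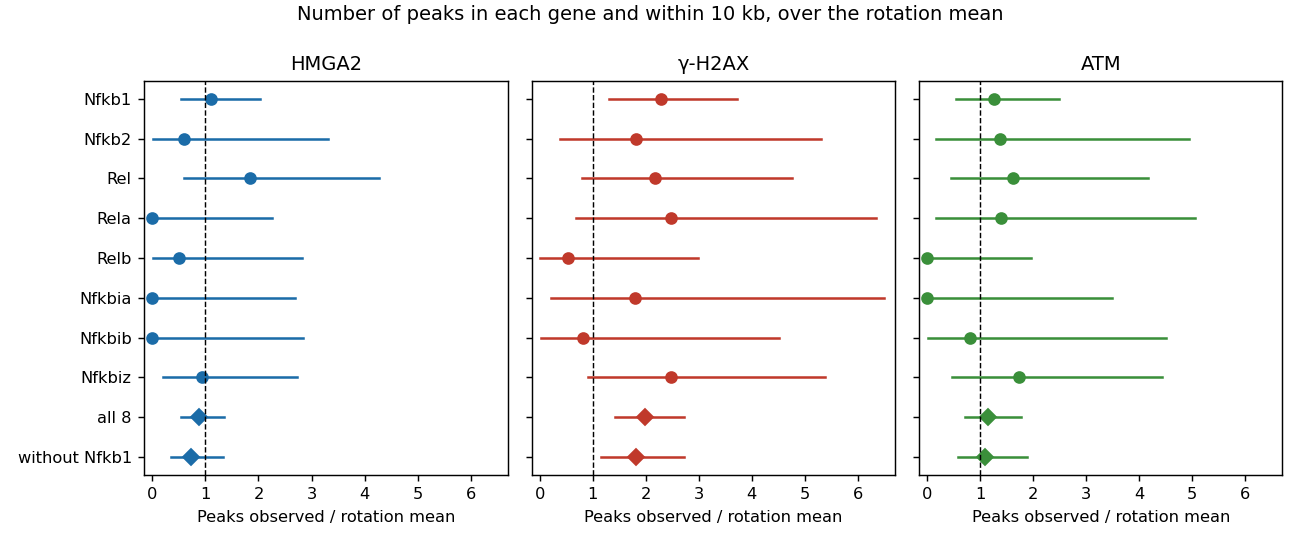
Number of peaks in each gene and within 10 kb of its ends, divided by the mean over all circular shifts of the list on the chromosome (x axis, ratio without unit; 1 is the dashed line), for HMGA2, γ-H2AX and ATM. Points are single genes, diamonds are sums over all 8 genes and over the 7 genes without Nfkb1, and bars are 95% exact Poisson intervals of 1 library each. The γ-H2AX diamonds are at 1.98 and 1.82, whereas those of HMGA2 are at 0.871 and 0.719.

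Every one of the 8 genes had a γ-H2AX peak in its window, where 79.2% of all protein-coding genes did. An HMGA2 peak was present at 5 genes (74.6% of all genes) and an ATM peak at 6 (77.7% of all genes). More γ-H2AX peaks than the rotation mean were found at 6 of the 8 genes, against 46.7% of all genes. The same was true of HMGA2 at 2 genes (34.4% of all genes) and of ATM at 5 (40.7% of all genes). The median γ-H2AX ratio of the 8 genes was 2.00, against 0.936 over all genes. Their median HMGA2 ratio was 0.551 against 0.701, and their median ATM ratio 1.31 against 0.870. Peaks of all 3 antibodies lay in the windows of 4 genes, Nfkb1, Nfkb2, Rel and Nfkbiz, against 54.9% of all genes. Nfkb1 was chosen by an HMGA2 peak, so its HMGA2 peak was given beforehand in these counts. Longer genes have longer windows. The 8 genes run from 3.24 kb (Nfkbia) to 107 kb (Nfkb1), and their median of 17.3 kb is close to the 17169 bp of the median protein-coding gene. Shares of genes with a peak are still not matched for length gene by gene.

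Nfkb1 encodes the precursor of the p50 subunit and spans chr3:135584655-135691969. It was the longest of the 8 and held 33.0% of the window sequence, 50% of the HMGA2 peaks, 41.0% of the γ-H2AX peaks and 38.1% of the ATM peaks. Its 10 HMGA2 peaks compared with a rotation mean of 9.05, its 16 γ-H2AX peaks with 7.0 and its 8 ATM peaks with 6.35. The γ-H2AX ratio was 2.29 (1.31 to 3.71), the HMGA2 ratio 1.11 (0.530 to 2.03) and the ATM ratio 1.26 (0.544 to 2.48). Of these intervals, that of γ-H2AX alone lay above 1. Most of the γ-H2AX peaks of Nfkb1 scored below 25, and some lay within 1 kb of each other, whereas the interval treats peaks as independent. Without Nfkb1, the 7 other genes had γ-H2AX at 23 peaks against 12.7 (ratio 1.82, 1.15 to 2.73).

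The HMGA2 peak that brought Nfkb1 into the set lay at chr3:135584838-135585119, inside the gene with its centre 324 bp from the lower-coordinate end. It scored 69.3 and was 282 bp wide, against a median width of 169 bp in the HMGA2 list. By the highest HMGA2 score within 1 kb of an end, Nfkb1 was number 3 of the 3915 protein-coding genes with such a peak, which are 17.9% of all. Tmem263 (score 107) and Zfp985 (83.3) stood just above it, and Rnf7 (60.9) and Fabp1 (60.02) just below. A γ-H2AX peak with a score of 23.4 overlapped this HMGA2 peak over 118 bp, 77.1% of the shorter of the pair. No ATM peak lay at this end, and the ATM peak of the window closest to it was at chr3:135617274-135617448 with a score of 20.1.

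The other end of Nfkb1 carried a γ-H2AX peak that crosses the annotated end, at chr3:135691875-135692017 with a score of 31.1 and its centre 23.0 bp inside. The authors' γ-H2AX promoter list contains exactly this region, which is at the end opposite to the high HMGA2 peak. The strand of Nfkb1 was not at hand, so neither end is named here as its transcription start. The second-highest HMGA2 peak of the gene lay on this side, at chr3:135689766-135690107, with a score of 32.4 and its centre 2033 bp from the end. The highest γ-H2AX peak, with a score of 34.7, lay outside the gene at chr3:135700641-135700795. The remaining HMGA2 peaks, 8 in number, scored 20.1 to 25.5 and were spread over the gene and its flank. The 8 ATM peaks scored 20.1 to 25.5 and all lay within the gene, none within 1 kb of an end. The HMGA2 peak at chr3:135672016-135672204 and the ATM peak at chr3:135672275-135672447 were 70 bp apart.

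**Figure D2:**
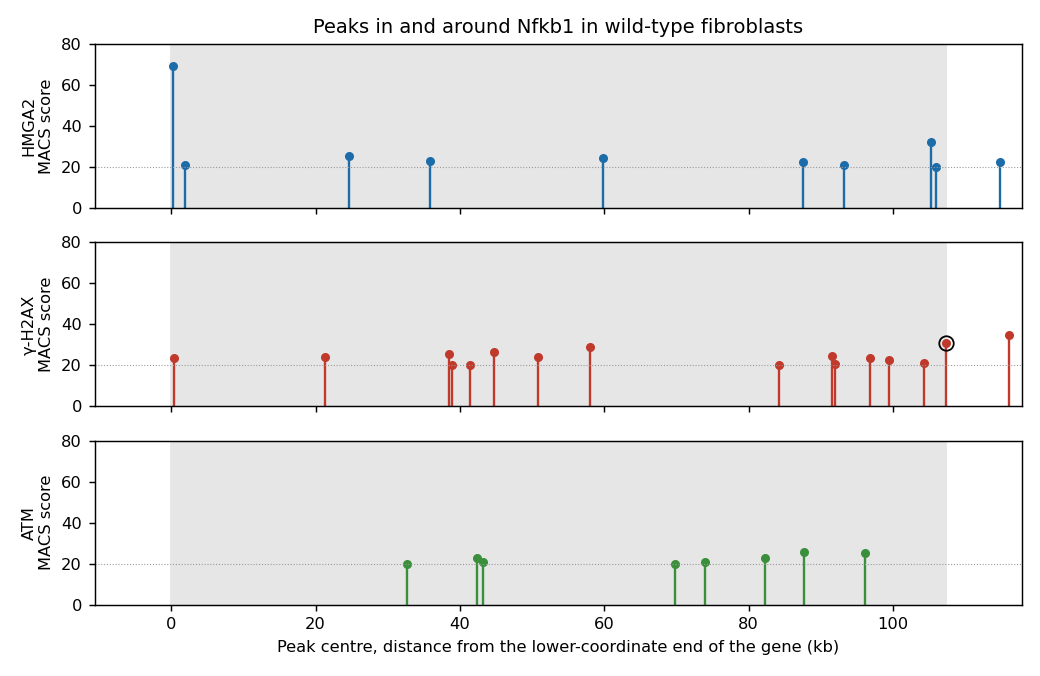
Peaks of HMGA2 (top), γ-H2AX (middle) and ATM (bottom) in and around Nfkb1. The x axis is the distance of the peak centre from the lower-coordinate end of the gene in kb, the y axis is the MACS score, the gene is shaded, the dotted line is the lowest score of 20, and the circled peak is in the γ-H2AX promoter list. The HMGA2 peak of 69.3 stands at the left end and the listed γ-H2AX peak of 31.1 at the right.

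The protein-coding genes whose highest scores were most like those of Nfkb1 over the 3 libraries were Speer4d, Shoc1 and Prkd2. The likeness was the Euclidean distance between the highest HMGA2, γ-H2AX and ATM scores in the windows, and it was 2.88 for Speer4d, 3.74 for Shoc1 and 4.18 for Prkd2. Their highest HMGA2 scores were 67.3, 72.6 and 67.0. Shoc1 is 97.0 kb long, near the length of Nfkb1, whereas Speer4d has 4.77 kb. Speer4d belongs to a family of similar genes, and whether its reads map to it alone was not tested.

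Nfkb2, at chr19:46300994-46312400, encodes the precursor of the p52 subunit of the non-canonical pathway. It had 1 HMGA2, 3 γ-H2AX and 2 ATM peaks, with rotation means of 1.68, 1.65 and 1.46. Both γ-H2AX peaks inside the gene are in the promoter list, at chr19:46304062-46304234 (score 20.4) and chr19:46305115-46305305 (score 22.8). They lay on either side of the upstream window printed above. The centre of the first was 589 bp before its start, and that of the second 473 bp after it and 485 bp before the downstream start. Both lie also in the long non-coding RNA gene 4833438C02Rik, which overlaps Nfkb2, so they cannot be given to one of the pair. The third γ-H2AX peak (21.6) and the HMGA2 peak (20.8) stood 208 bp apart below the gene, more than 3 kb from its end. The ATM peak of 24.7 lay in the neighbouring gene Psd, and the other (24.0) at chr19:46294399-46294581.

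Rel encodes c-Rel, the subunit best known from lymphocytes, and spans chr11:23736847-23770969. It had 5 HMGA2 peaks, the highest HMGA2 ratio of the 8 genes (1.83, 0.595 to 4.27), with an interval that includes 1. All 5 lay within the gene, with scores of 20.6 to 26.5 and none closer than 6465 bp to an end. Its 6 γ-H2AX peaks scored 21.8 to 24.6 (ratio 2.18, 0.801 to 4.75), and 4 of them lay in the gene. Its 4 ATM peaks scored 20.1 to 29.8 and included the highest ATM score of the 8 genes, at chr11:23743718-23743828. The ATM peak at chr11:23770275-23770399 (score 28.7) was the only ATM peak of the 8 genes within 1 kb of a gene end, where 16.1% of all genes have one. Its centre was 632 bp after the transcription start of Rel.

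Rela encodes p65, the subunit with the strong activation domain, at chr19:5637442-5648134. It had no HMGA2 peak, 4 γ-H2AX peaks and 2 ATM peaks, and none of the 6 lay in the gene. All of them stood before the transcription start. The γ-H2AX centres were 3095 to 7447 bp before the listed start, with scores of 20.8 to 23.6 (ratio 2.48, 0.675 to 6.35). The ATM peaks were centred 1795 and 4348 bp before it, with scores of 20.8 and 23.9. The γ-H2AX peak at chr19:5633360-5633558 and the ATM peak at chr19:5633119-5633268 were 91 bp apart.

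Relb, at chr7:19606217-19629438, encodes the partner of p52. It had 1 peak of γ-H2AX, 1 of HMGA2 and none of ATM, each below its rotation mean. The γ-H2AX peak, at chr7:19619130-19619332, scored 43.0 and was the second-highest γ-H2AX peak of the 8 genes, 10207 bp inside the gene. The HMGA2 peak (score 22.0) lay in the adjacent gene Clasrp.

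Among the inhibitor genes, Nfkbia and Nfkbib had few peaks. Nfkbia, at chr12:55489409-55492647, encodes IκBα, the first-line inhibitor of the family. Its window held 2 γ-H2AX peaks and neither HMGA2 nor ATM, with rotation means of 1.11, 1.37 and 1.06. Both γ-H2AX peaks lay before the start, centred 5033 bp (score 28.3) and 8301 bp (23.9) away, and the nearer one lies in the non-coding gene Gm36634. Nfkbib, at chr7:28758251-28766644, encodes IκBβ and had 1 γ-H2AX peak (24.4) and 1 ATM peak (27.3), both within the gene, and no HMGA2 peak. With rotation means this close to 1, the absence of a peak in 1 library is within counting error.

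Nfkbiz encodes IκBζ, a nuclear member of the family that takes part in activating a subset of inflammatory genes, and spans chr16:55811375-55838954. It had 3 HMGA2 peaks (rotation mean 3.21), 6 γ-H2AX peaks (2.42) and 4 ATM peaks (2.31). The highest γ-H2AX peak of the 8 genes stood 277 bp beyond its upper end, at chr16:55839076-55839386, with a score of 47.6 and a width of 311 bp. This region is in the γ-H2AX promoter list, and it lies between Nfkbiz and Nxpe3, whose ends are 998 bp apart, so it may belong to either. The HMGA2 peak at chr16:55823013-55823229 scored 46.1, second only to that of Nfkb1 among the 8 genes, and lay within the gene, 11746 bp from its lower end.

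Below the lower end of Nfkbiz lay 2 of the overlapping pairs of peaks. An HMGA2 peak (score 23.0, chr16:55807170-55807343) and an ATM peak (22.7, chr16:55807215-55807367) overlapped over 129 bp, 84.3% of the shorter. A γ-H2AX peak (25.3, chr16:55809961-55810102) and an ATM peak (23.5, chr16:55810023-55810279) overlapped over 80 bp, 56.3% of the shorter. A further HMGA2 peak (29.3) lay at chr16:55809348-55809499. With the pair at the lower end of Nfkb1 these were the 3 overlapping pairs in the set, at 2 of the 8 genes, where 19.6% of all genes have such a pair. The pair of Nfkb1 includes the HMGA2 peak that chose the gene, so Nfkbiz alone entered this count without that choice. At no gene did peaks of all 3 antibodies overlap at 1 place, and at none did all 3 lie within 1 kb of the ends (1.12% of all genes).

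**Figure D3:**
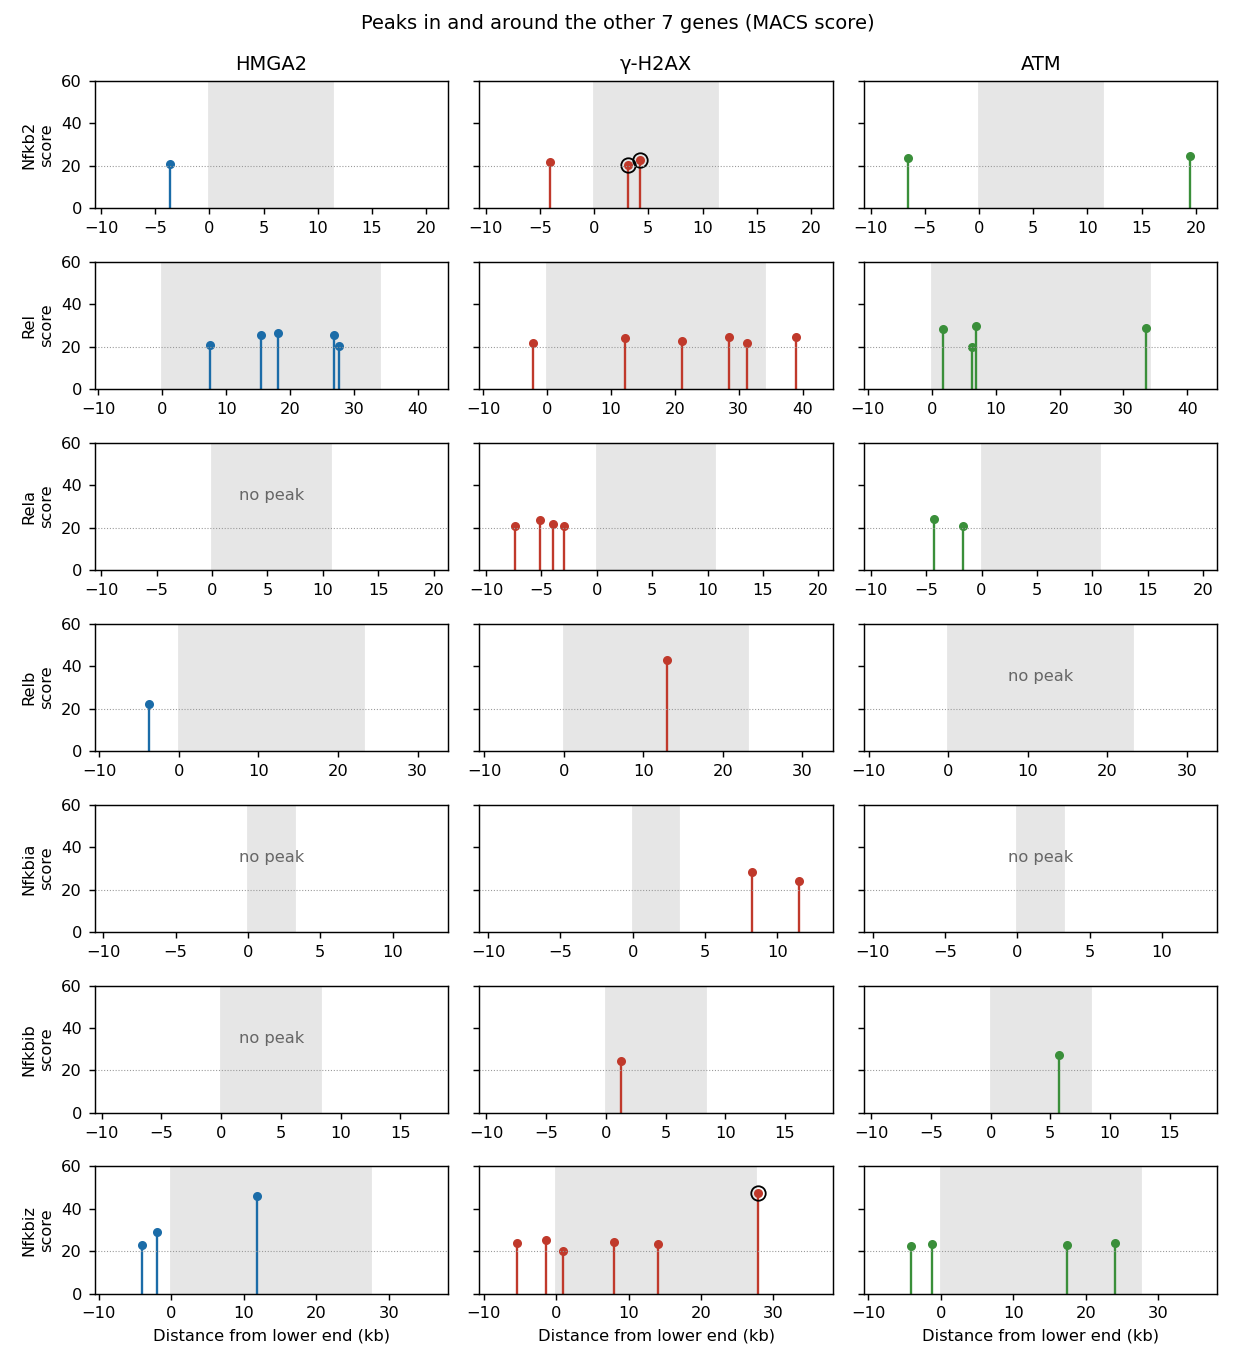
Peaks of HMGA2, γ-H2AX and ATM (columns) in and around the other 7 genes (rows). The x axis is the distance of the peak centre from the lower-coordinate end in kb, the y axis is the MACS score, the gene is shaded, the dotted line is the lowest score of 20, and circled peaks are in the γ-H2AX promoter list. Rela, Nfkbia and Nfkbib have no HMGA2 peak, and the highest points are the γ-H2AX peak of Nfkbiz at 47.6 and its HMGA2 peak at 46.1.

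A γ-H2AX peak lay within 1 kb of an end of 2 genes, Nfkb1 and Nfkbiz, 25% of the set, where 23.3% of all genes have one, and nothing particular to the set is read from it. An HMGA2 peak did so at Nfkb1 alone, where it chose the gene. A γ-H2AX peak with a score of 30 or more lay in the windows of 3 genes (25.7% of all genes), such an HMGA2 peak in those of 2 (24.4%) and such an ATM peak in none (21.6%). Of the 2 genes with such an HMGA2 peak, Nfkb1 was chosen by it, which leaves 1 of the 7 other genes, Nfkbiz. Regions of the authors' γ-H2AX promoter list touched the windows of 3 genes, Nfkb1, Nfkb2 and Nfkbiz, where 14.4% of all genes have one. No region of the ATM promoter list did, where 5.79% of all genes have one. The labels do not say how the authors chose these regions.

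The subunit genes and the inhibitor genes had like γ-H2AX ratios, 2.01 (1.36 to 2.88) over 5 genes and 1.89 (0.863 to 3.58) over 3. The HMGA2 ratio was 0.996 (0.580 to 1.59) for the subunits and 0.510 (0.105 to 1.49) for the inhibitors. The ATM ratio was 1.18 (0.674 to 1.91) for the subunits and 1.09 (0.353 to 2.53) for the inhibitors. Single genes weigh heavily in these sums. Nfkbiz held 6 of the 9 γ-H2AX peaks and all 3 HMGA2 peaks of the inhibitors. Nfkb1 held 16 of the 30 γ-H2AX peaks of the subunits. The intervals overlap widely, and a difference between subunits and inhibitors was not detectable with so few peaks.

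The other genes of the pathway, 65 in 5 lists, had 227 γ-H2AX peaks in their windows against a rotation mean of 154 (ratio 1.47), 197 HMGA2 peaks against 186 (1.06) and 132 ATM peaks against 146 (0.902). The γ-H2AX ratio was above 1 in 4 of the 5 lists, and 0.995 in that of the other IκB proteins. A γ-H2AX peak lay in the windows of 59 of the 65 genes (90.8%, against 79.2% of all genes), among them all 8 negative regulators. Some windows share peaks, such as those of the adjacent genes Ccl2 and Ccl7. The highest pooled γ-H2AX ratios were 1.61 for the 18 receptors and adaptors and 1.57 for the 26 target genes, and the median ratio of the target genes, 0.924, was close to the 0.936 of all genes. A γ-H2AX peak lay within 1 kb of an end of 19 of the 65 genes (29.2%, against 23.3% of all genes), an HMGA2 peak of 13 (20%, against 17.9%) and an ATM peak of 8 (12.3%, against 16.1%). Regions of the γ-H2AX promoter list touched the windows of 8 of the 65 genes (12.3%, against 14.4% of all genes). A region of the ATM promoter list touched the window of 1 (1.54%, against 5.79%). The genes named below for such regions are therefore no more frequent than among all genes.

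**Figure D4:**
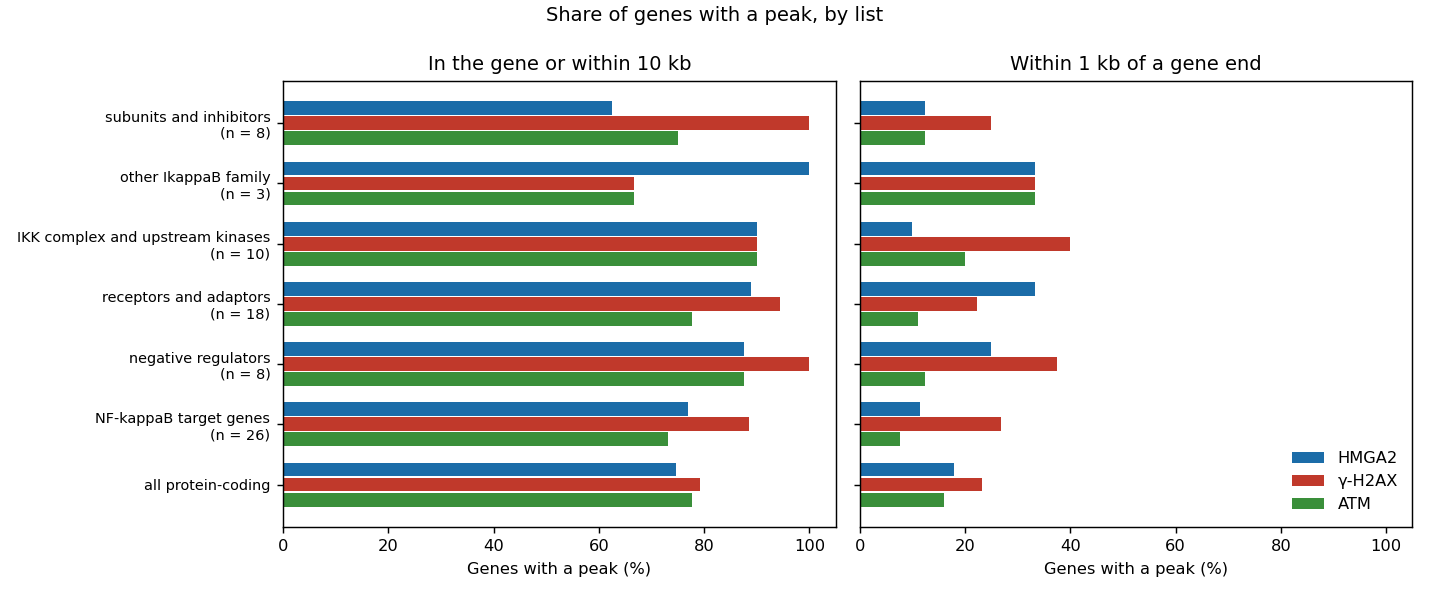
Share of genes (%) with a peak of HMGA2, γ-H2AX or ATM in the gene or within 10 kb (left) and within 1 kb of an end (right), for the 8 subunit and inhibitor genes, 5 other lists of the pathway and all protein-coding genes. In the left panel the γ-H2AX bar of the 8 genes reaches 100%, as does that of the negative regulators, against 79.2% of all protein-coding genes. In the right panel the γ-H2AX bar of the 8 genes is at 25% against 23.3%.

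Among the receptors and adaptors, Myd88, the adaptor of Toll-like and interleukin-1 receptors, had the highest γ-H2AX score at an end of any gene in the 5 lists, 53.0. Its window touched a region of the γ-H2AX promoter list, and it also had an HMGA2 peak of 20.4 at an end. Tlr2, a receptor for bacterial lipoproteins, had 3 γ-H2AX peaks at its ends, the highest at 44.8. Tlr4, the receptor for lipopolysaccharide, had 2 HMGA2 peaks (highest 26.4) and 1 ATM peak (20.8) there, and Ltbr, the lymphotoxin β receptor of the non-canonical pathway, had HMGA2 at 26.2 and γ-H2AX at 23.1. Tradd, the adaptor of TNF receptor signalling, had HMGA2 at 21.4 and ATM at 22.4, and its window touched 2 regions of the γ-H2AX promoter list.

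Among the kinases, Tbk1, a kinase related to the IκB kinases, was the only one of the 65 genes with peaks of all 3 antibodies at its ends. Its ATM peak scored 36.4, its highest γ-H2AX peak there 23.1 and its HMGA2 peak 21.8. Chuk and Ikbkb encode the catalytic subunits of the IκB kinase complex, and each had a γ-H2AX peak at an end, with scores of 28.5 and 29.8. Chuk had in addition 2 ATM peaks at its ends (highest 22.6) and 2 regions of the γ-H2AX promoter list in its window. Of the remaining inhibitors, Nfkbie (IκBε) had HMGA2 at 28.5 and ATM at 22.0 at its ends, and Bcl3, a nuclear IκB protein, had γ-H2AX at 29.4.

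The negative regulators included Otulin, a deubiquitinase of linear ubiquitin chains, with the highest HMGA2 score at an end of the 5 lists, 33.9. Tax1bp1, which acts with the ubiquitin-editing enzyme A20, had HMGA2 at 22.3 and γ-H2AX at 25.7. Itch, a ubiquitin ligase, had γ-H2AX at 30.5 and ATM at 20.4, and its window touched a region of the γ-H2AX promoter list.

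Of the target genes, Ptgs2, which encodes cyclooxygenase 2, had γ-H2AX at 36.8 and ATM at 31.7 at its ends and was the only gene of the 65 with regions of both promoter lists in its window. The chemokine genes Ccl2 and Cxcl5 had γ-H2AX peaks at an end (23.5 and 26.9). The window of each touched a region of the γ-H2AX promoter list. Ccl7 and Cxcl2, also chemokine genes, had HMGA2 peaks there (25.5 and 26.2). Lif, a cytokine gene, had a region of the γ-H2AX promoter list in its window and no peak within 1 kb of an end. Irf1, a transcription factor of the interferon response, had an ATM peak of 22.1 at an end.

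Promoter sequences were at hand for 52 of these 65 genes, with 67 windows. A κB motif was present in 20 of them, against 4.51% of all windows. The lists include genes chosen as NF-κB targets, and the windows were not matched for base composition. The count of motifs is therefore a description and supports nothing. HMGA2 peaks touched 1 window (1.46% of all windows), γ-H2AX peaks 1 (3.53%) and ATM peaks none (1.81%), too few to set these genes apart from the rest. The HMGA2 case was Bcl2l1, a target gene that encodes the survival protein Bcl-xL. It and the γ-H2AX case were singled out after their values were seen. Its peak, at chr2:152830825-152830996 with a score of 25.7, overlapped the promoter window chr2:152830668-152830967 (minus strand) over 143 bp. This window is of a start inside the gene, whose upper end is at chr2:152833803. No HMGA2 peak lay within 1 kb of an end of Bcl2l1. The window had 1 κB match, in capitals.
Bcl2l1: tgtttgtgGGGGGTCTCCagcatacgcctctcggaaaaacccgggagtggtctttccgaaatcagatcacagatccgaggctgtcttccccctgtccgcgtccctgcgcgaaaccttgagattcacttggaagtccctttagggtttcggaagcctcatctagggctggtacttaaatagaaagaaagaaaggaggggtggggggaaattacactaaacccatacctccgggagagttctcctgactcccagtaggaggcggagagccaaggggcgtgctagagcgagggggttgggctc
The γ-H2AX case was Tab2, an adaptor of the kinase TAK1, with a peak of 20.8 that overlapped a window inside the gene over 36 bp. The window at the upper end of Tab2 was not touched, and no γ-H2AX peak lay within 1 kb of an end.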

How the data were processed

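Peaks of the HMGA2, H2AXS139ph (γ-H2AX) and ATM libraries of wild-type MEF were used as the authors deposited them. Per the labels, they were called with MACS14 without its model, at a p threshold of 0.01 and a shift size of 30 bp, and the deposited score is the -10 log10 p that MACS gives each peak. The submitters' processing notes name Trimmomatic, Bowtie2, SAMtools, HOMER and mm10. The control library of the peak calls, the number of reads and software versions are not given in the sources used here. The deposited promoter regions (unit other, start and end only) are the authors'. All 2220 γ-H2AX regions and 788 of 866 ATM regions are identical to a peak when their starts are read as 1-based and those of the peaks as 0-based.

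Gene bounds came from RefSeq on GRCm38.p6, the assembly of mm10, for 21887 protein-coding genes. A peak was counted where it shared 1 bp with the gene or its flanks of 10 kb. The rotation mean was computed exactly, over the stretch from the first to the last peak of a chromosome, and the counting was checked on simulated lists. Intervals are 95% exact Poisson intervals (SciPy 1.17.1, Python 3.11.15) and cover counting error only. No test was made, as each antibody had 1 library. The members and lists were chosen with earlier results of these data known. From the 5 other pathway lists, genes were named that had peaks of all 3 antibodies at their ends, a region of a promoter list in their window, or 1 of the 2 highest scores at an end per list and antibody. The neighbours of Nfkb1 in rank, and the 3 genes nearest to it in highest scores, were also named. Flanks, score thresholds, the overlap rule and the source of the expected count were varied.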

Additional observations from a re-analysis of the deposited data

How the results depend on the processing

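Of 38 alternative values, 30 stayed within the interval of the count as reported, or within 1.5 times it. With peaks of a score of at least 25, the γ-H2AX ratio of the 8 genes was 1.32 in place of 1.98, and with a score of at least 30 the ATM ratio was 0. The number of genes with an HMGA2 peak was 3 with a flank of 1 kb, 3 in the gene body alone and 2 at a score of at least 30, in place of 5. At a score of at least 30 it was 3 for γ-H2AX in place of 8 and 0 for ATM in place of 6. With peak centres within 500 bp in place of an overlap, the number of pairs was 6 in place of 3. The numbers of genes and pairs changed with fewer peaks, less sequence or a wider rule. At a score of at least 30 the γ-H2AX ratio was 1.96, from 4 peaks, and the cause of the lower value at 25 was not tested. With the expected count taken from within 1 Mb of each window, the γ-H2AX ratio was 1.79, the HMGA2 ratio 0.769 and the ATM ratio 1.09. Leaving out Nfkb1, an alternative chosen after seeing the data, gave a γ-H2AX ratio of 1.82, an HMGA2 ratio of 0.719 and an ATM ratio of 1.10. No paired analysis was possible because each antibody and genotype had 1 library. The peak lists hold no read counts, so the depth behind a peak is unknown, and regions where every library has high background could not be set aside without the inputs.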
